A study of Mus musculus with 15 samples.

Results

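The S100 genes encode small calcium-binding proteins, and 7 of them were followed here across the onset of differentiation of adult mouse neural stem cells: S100a1, S100a4, S100a6, S100a10, S100a11, S100a13 and S100b. They were found by gene symbol among the probe sets of an Affymetrix mouse array. Of the 7, 6 were named by 9 probe sets of their own, out of 12393 genes named by 20380 such probe sets. The only probe set for S100a11 carried 3 symbols, so no value is given for it. Levels are given as log2 of the deposited value in arbitrary units, and can be set against each other only within a probe set. All 6 of the others passed the filter on low levels, a mean above 0.51 on this scale, which left 7909 genes to test.

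The cells came from the subventricular zone, the stem cell layer along the lateral ventricles, of female C57Bl6/J mice aged 6 months. They were grown as neurospheres and used at passages 5 to 7. Undifferentiated cells were kept in bFGF and EGF (5 arrays); the other 2 groups lacked both factors and had been in 5% serum on poly-D-lysine for 12 h (5 arrays) or 24 h (5 arrays). Growth factor loss, serum and attachment came together, and their effects cannot be told apart here. Whether the replicates of a group were separate cultures is not stated, and the p-values therefore reflect the spread between these arrays, part of which may be technical. Because RNA was taken from whole cultures, fewer cells of a type and less RNA per cell cannot be told apart in any value below.

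S100 proteins bind calcium through paired EF-hand loops, open a hydrophobic face and then dock on a partner protein. S100b is abundant in astrocytes and in cells of the oligodendrocyte lineage and is widely used as a glial marker, and its released form can act on the receptor Ager (RAGE). S100a6 (calcyclin) is known from growth-stimulated cells and from astrocytes, and S100a4 from motile cells, where it binds non-muscle myosin. S100a10 (p11) is the exception in the family, since its loops no longer bind calcium; it joins annexin A2 into a complex that carries channels and plasminogen to the plasma membrane.

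On chromosome 3, in the annotation of assembly GRCm38.p6, S100a1 and S100a13 are neighbours, S100a4, S100a5 and S100a6 follow each other, and S100a11 lies next to S100a10. S100b lies apart, on chromosome 10 between Prmt2 and Dip2a. RefSeq promoter sequences of that build matched 5 of the 6 measured members; none was matched for S100a10. Below are the 250 bases before the start of S100b and S100a6, which rose at 24 h, and of S100a4, which lies near S100a6 and did not pass the test. They read 5' to 3' on the gene's strand, at chr10:76253586-76253835 (+), chr3:90612644-90612893 (+) and chr3:90603520-90603769 (+). Capitals mark motif matches.
S100b: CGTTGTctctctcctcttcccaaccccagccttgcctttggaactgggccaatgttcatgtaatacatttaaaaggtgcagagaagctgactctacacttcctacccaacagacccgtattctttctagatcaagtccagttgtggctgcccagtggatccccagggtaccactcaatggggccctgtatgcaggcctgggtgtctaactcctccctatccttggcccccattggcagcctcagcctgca
S100a6: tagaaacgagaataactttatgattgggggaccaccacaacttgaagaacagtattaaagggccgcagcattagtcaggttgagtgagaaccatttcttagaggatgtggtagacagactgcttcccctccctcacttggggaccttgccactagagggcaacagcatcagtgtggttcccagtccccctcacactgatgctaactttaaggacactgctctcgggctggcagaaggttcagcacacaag
S100a4: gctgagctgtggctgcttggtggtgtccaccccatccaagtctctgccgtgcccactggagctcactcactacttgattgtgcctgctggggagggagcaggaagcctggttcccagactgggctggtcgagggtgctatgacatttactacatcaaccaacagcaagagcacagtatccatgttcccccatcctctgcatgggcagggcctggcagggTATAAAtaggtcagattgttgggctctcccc
The letters searched, on both strands, were the AP-1 motif TGANTCA, the TEAD motif GGAATG, the GC box GGGCGG, the TATA box TATAAA and the SOX motif ACAANG. S100a4 held a TATA box match from -31 to -26 before its start, and 12.4% of 32851 promoter windows of this length held that motif. S100b held a SOX match, read on the other strand, from -250 to -245, as did 36.3% of the windows. The other motifs were found in 6.75% (AP-1), 12.6% (TEAD) and 32.7% (GC box) of windows, and none of the 5 motifs was found in the S100a6 window. The windows of S100a1 and S100a13, which run in opposite directions, shared 104 bases and held none of the 5 motifs. A match describes the letters and is not evidence of a bound factor.

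Some properties of the arrays bear on every value that follows. Sample titles and array file names carry codes that do not match in 13 of 15 cases, and 8 samples would change group by the file name; the titles were followed. With groups taken from the file codes instead, limma called 0 genes in each comparison (81, 118 and 21 at an unadjusted p under 0.05), and S100a6, S100a10 and S100b differed by 0.038, -0.049 and -0.19 at 24 h. Title codes end in 3 suffixes, here A, B and C, and form 6 runs of consecutive codes; what either marks is not stated. The 12 h replicates 3 and 4, both of suffix B, were the most alike of all pairs of arrays (SD of their difference 0.150 on the log2 scale, against 0.277 for the next pair). The beta-actin 3'/5' signal ratio, a measure of RNA integrity and labelling, was 1.95 ± 0.238 (SD, n = 5) in undifferentiated cells, 2.36 ± 0.148 at 12 h and 2.78 ± 0.365 at 24 h. It was higher at 24 h than in undifferentiated cells in all 5 arrays (exact permutation test, two-sided, p = 0.00794, adjusted over 6 tests 0.0476). The mean actin ratio was also higher at 12 h than in undifferentiated cells (exact permutation test, p = 0.0159, adjusted 0.0476). The Gapdh 3'/5' ratio had means of 1.19 in undifferentiated cells, 1.29 at 12 h and 1.34 at 24 h. It passed neither at 12 h nor at 24 h against undifferentiated cells (exact permutation test, adjusted p = 0.341 and 0.226). Between the times neither ratio passed (exact permutation test, adjusted p = 0.0952 for actin and 0.341 for Gapdh).

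At 24 h, S100b and S100a6 were higher and S100a10 was lower than in undifferentiated cells, and for each of the 3 the arrays of the groups did not overlap. The differences on the log2 scale were 1.49 ± 0.42 (standard error, n = 5 per group) for S100b, 1.93 ± 0.47 for S100a6 and -1.66 ± 0.50 for S100a10. S100a1, S100a4 and S100a13 did not pass the test. So 3 of 6 members were called at an adjusted p under 0.05 by limma, 2 higher and 1 lower. Of all 7909 genes tested, 32.1% were called in this comparison (12.7% higher, 19.4% lower), and in 25.1% the groups did not overlap, so the count by itself does not set the family apart. The balance of directions over all genes depended on the scaling of the arrays. It was 1003 higher and 1533 lower here, 1564 and 1229 after median centring, and 1588 and 1304 after quantile normalisation.

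At 12 h none of the 6 members was called by limma against undifferentiated cells, where 7.86% of all genes were (3.3% higher, 4.56% lower). The largest difference was that of S100a6, 1.44 ± 0.47. Between 12 h and 24 h none of the 6 was called either, against 0.417% of all genes. At an unadjusted p under 0.05 limma gave 1 of the 6 at 12 h, S100a6, and 2 of the 6 between the times, S100a10 and S100b. The median difference of the 6 members was 0.32 at 12 h and 0.45 at 24 h against undifferentiated cells, beside medians of 0.0045 and -0.060 over all genes tested.

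**Figure D1:**
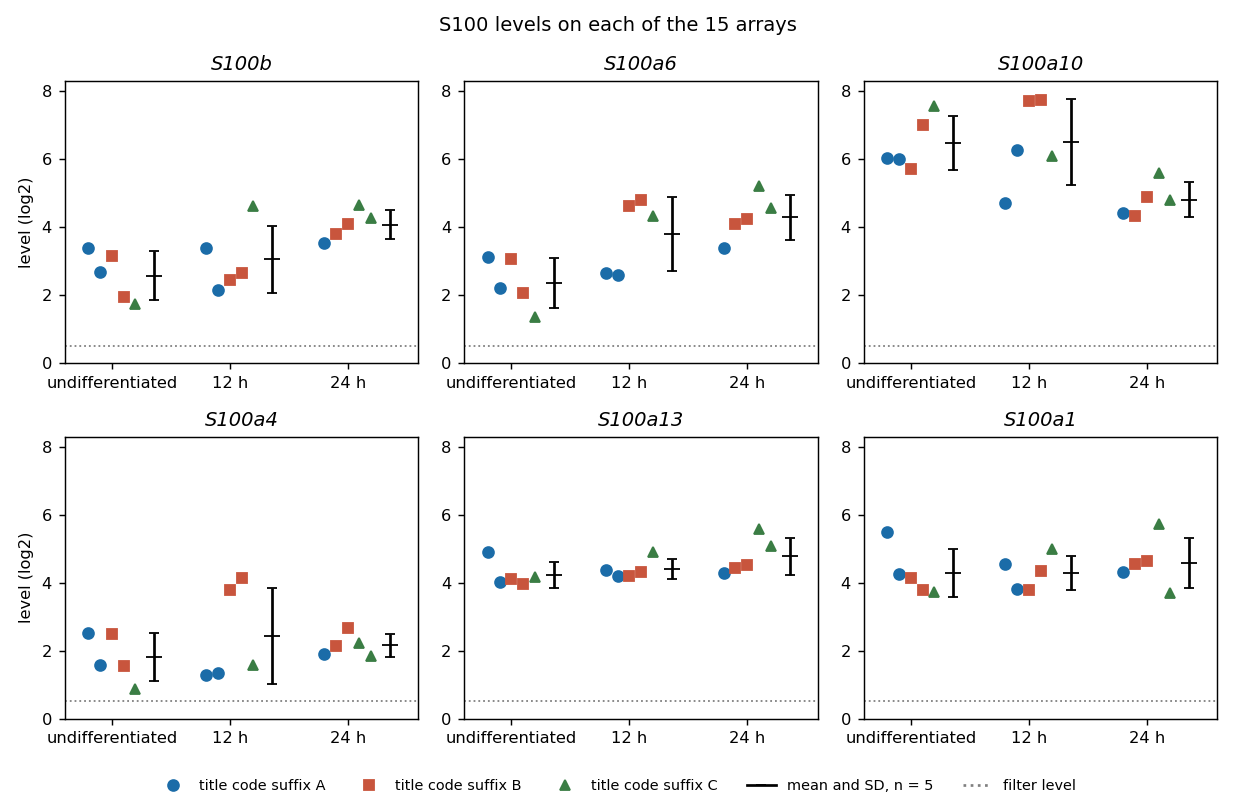
Log2 level of each of the 6 S100 genes (vertical axis) on every array of the 3 groups (horizontal axis, 5 points each). Point shape and colour give the suffix of the title code, the black bar beside each group its mean and SD, and the dotted line the filter level of 0.51. S100b and S100a6 sit higher and S100a10 lower at 24 h than in undifferentiated cells with no overlap; 12 h replicates 3 and 4 (adjacent squares) are the highest 12 h arrays for S100a4, S100a6 and S100a10.

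S100b, the glial calcium sensor, had log2 levels of 3.39, 2.67, 3.15, 1.94 and 1.73 in undifferentiated replicates 1 to 5. At 12 h they were 3.40, 2.16, 2.45, 2.66 and 4.61, and at 24 h 3.54, 3.79, 4.11, 4.64 and 4.28. At 12 h 4 of the arrays lay within or barely above the undifferentiated range, 12 h replicate 5 stood as high as the 24 h arrays, and every 24 h array lay above every undifferentiated one. The group means were 2.58 ± 0.728 (SD, n = 5), 3.06 ± 0.984 and 4.07 ± 0.429. S100b was 2.82-fold higher at 24 h than in undifferentiated cells (limma adjusted p = 0.0127). The difference was 0.48 ± 0.42 at 12 h (limma adjusted p = 0.493) and 1.01 ± 0.42 between 12 h and 24 h (limma adjusted p = 0.259). Without 12 h replicate 5 the step between the times was 1.40 and called (limma adjusted p = 0.0320).

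A second probe set for S100b gave a like picture. Its undifferentiated arrays ran from 0.82 to 2.89, its 12 h arrays from 1.49 to 4.15 and its 24 h arrays from 2.91 to 4.60. The lowest 24 h array thus lay just above the highest undifferentiated one. The difference at 24 h was 2.08 ± 0.49 (limma over all 20380 probe sets, adjusted p = 0.0082) and that at 12 h 0.59 ± 0.49, which did not pass.

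S100a6, calcyclin, had log2 levels of 3.11, 2.22, 3.06, 2.05 and 1.37 in undifferentiated cells. At 12 h its levels were 2.65, 2.59, 4.63, 4.79 and 4.32, and at 24 h 3.39, 4.09, 4.24, 5.20 and 4.56. At 12 h the arrays fell into a pair within the undifferentiated range and 3 arrays above it, while all 24 h arrays lay above it. The group means were 2.36 ± 0.732 (SD, n = 5), 3.80 ± 1.09 and 4.29 ± 0.662. S100a6 was 3.82-fold higher at 24 h than in undifferentiated cells (limma adjusted p = 0.00596).

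At 12 h the S100a6 difference of 1.44 had a 95% confidence interval of 0.44 to 2.43 and a limma adjusted p of 0.0677, so it was not called. It was called with the title code suffix as a block (limma adjusted p = 0.0321), with the runs of codes as a fixed block (0.0497) or a random one (0.0275), and without 12 h replicate 1 (0.0404). It was 0.83 without 12 h replicates 3 and 4. The step from 12 h to 24 h was 0.50 ± 0.47 (limma adjusted p = 0.663).

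S100a10, the annexin A2 partner, took the other direction. Its log2 levels were 6.04, 6.01, 5.71, 7.02 and 7.57 in undifferentiated cells, 4.71, 6.27, 7.72, 7.74 and 6.10 at 12 h, and 4.41, 4.32, 4.88, 5.61 and 4.81 at 24 h. The 12 h arrays covered the whole span, from below most 24 h arrays up to above every undifferentiated one, and all 24 h arrays lay under all undifferentiated ones. The group means were 6.47 ± 0.787 (SD, n = 5), 6.51 ± 1.27 and 4.81 ± 0.509. At 24 h S100a10 was 3.17-fold lower than in undifferentiated cells (limma adjusted p = 0.0190). Without undifferentiated replicate 5, the highest of its group, the difference was -1.39 and no longer called (limma adjusted p = 0.0524).

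The mean of S100a10 at 12 h differed from that of undifferentiated cells by 0.038 ± 0.50 (limma adjusted p = 0.974), but rested on the 2 arrays that were most alike: without 12 h replicates 3 and 4 the difference was -0.77. From 12 h to 24 h S100a10 differed by -1.70 ± 0.50 (limma adjusted p = 0.124). That step was called with the suffix as a block (-1.92, limma adjusted p = 0.0334), with the runs as a random block (-1.86, 0.0377) and without 12 h replicate 1 (-2.15, 0.0407), but not with the runs as a fixed block (-2.18, 0.0559). The second S100a10 probe set, of a design that can cross-hybridise, differed by -0.96 ± 0.33 at 24 h (limma over all probe sets, adjusted p = 0.0492) and by 0.17 ± 0.33 at 12 h. Its undifferentiated arrays lay between 4.01 and 5.02, its 24 h arrays between 3.12 and 3.86.

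S100a4, close to S100a6 on chromosome 3, did not pass in any comparison. Its log2 levels were 2.53, 1.57, 2.49, 1.56 and 0.86 in undifferentiated cells, 1.28, 1.33, 3.80, 4.14 and 1.59 at 12 h, and 1.90, 2.14, 2.67, 2.24 and 1.83 at 24 h. Replicates 3 and 4 at 12 h stood above every other array, and the rest of the 12 h arrays lay within the undifferentiated range. The differences were 0.63 ± 0.52 at 12 h (limma adjusted p = 0.467) and 0.35 ± 0.52 at 24 h (limma adjusted p = 0.634). The step between the times was -0.27 ± 0.52 (limma adjusted p = 0.843). Without 12 h replicates 3 and 4, the 12 h difference turned to -0.40 and the step between the times to 0.76.

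S100a13, which takes part in the release of FGF1 and interleukin 1 alpha without a signal peptide, had log2 levels of 4.90, 4.03, 4.10, 3.96 and 4.18 in undifferentiated cells. The 12 h levels were 4.37, 4.20, 4.19, 4.33 and 4.90, and those at 24 h 4.28, 4.43, 4.51, 5.59 and 5.09. Undifferentiated replicate 1 lay among the highest arrays; the other 4 undifferentiated arrays lay below every 24 h array. The difference at 24 h was 0.55 ± 0.24 (limma adjusted p = 0.0962) and that at 12 h 0.17 ± 0.24 (limma adjusted p = 0.709); between the times it was 0.38 ± 0.24 (limma adjusted p = 0.478). With the runs of title codes as a random block the 24 h difference was 0.53 and called (limma adjusted p = 0.0489), and without undifferentiated replicate 1 it was 0.71 and called (limma adjusted p = 0.0312).

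S100a1, best known from heart and skeletal muscle, where it acts on calcium cycling, had levels of 5.50, 4.27, 4.14, 3.77 and 3.74 in undifferentiated cells. At 12 h they were 4.54, 3.81, 3.80, 4.33 and 4.98, and at 24 h 4.33, 4.56, 4.64, 5.73 and 3.70. All groups overlapped widely. The differences were 0.0086 ± 0.37 at 12 h (95% confidence interval -0.77 to 0.79; limma adjusted p = 0.993) and 0.31 ± 0.37 at 24 h (limma adjusted p = 0.555). Its second probe set differed by -0.24 ± 0.38 and 0.023 ± 0.38. The interval at 12 h leaves room for a change in either direction.

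**Figure D2:**
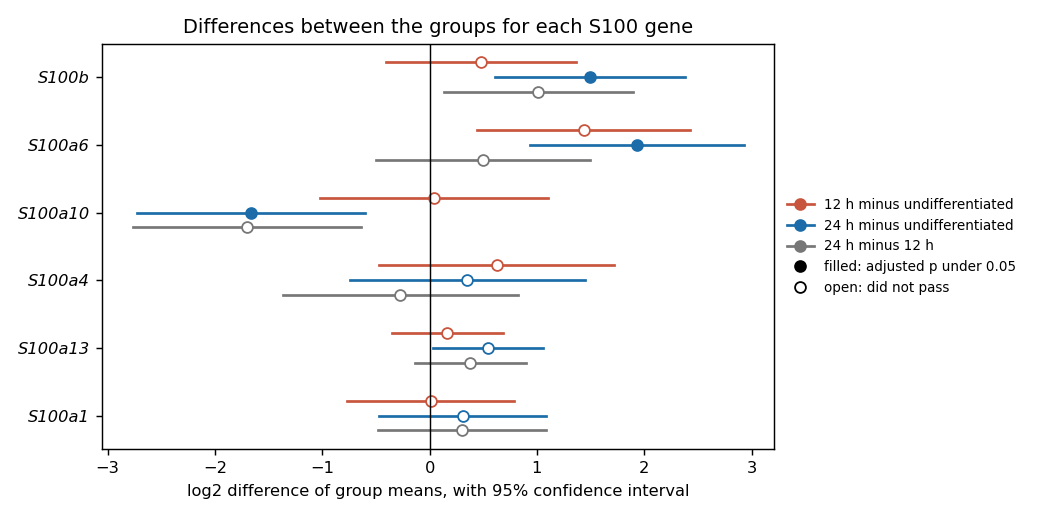
Differences of group means for the 6 S100 genes on the log2 scale (horizontal axis) in the 3 comparisons, as points with 95% confidence intervals, which are not adjusted for the number of genes. Filled points passed at an adjusted p under 0.05 and open points did not; the filled ones are S100b (1.49), S100a6 (1.93) and S100a10 (-1.66) at 24 h against undifferentiated cells.

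The suffix of the title code went with the size of the 24 h differences. Within suffixes A, B and C the 24 h difference of S100b was 0.51, 1.40 and 2.73, and that of S100a6 was 0.72, 1.61 and 3.51. For S100a10 it was -1.61, -1.77 and -2.36. The direction was thus the same in each suffix and the size smallest in A for all 3 genes; each suffix holds only 1 or 2 arrays of a group, so these differences between suffixes were not tested. S100a13 differed by -0.18, 0.44 and 1.16. At 12 h the suffixes disagreed in direction. S100a6 differed by -0.042, 2.16 and 2.95, S100a10 by -0.54, 1.36 and -1.46, and S100b by -0.25, 0.012 and 2.88.

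Of the runs of consecutive codes, 4 hold both an undifferentiated and a 24 h array. S100a6 was higher at 24 h in 4 of 4 (by 1.03 to 3.19), S100b in 4 of 4 (by 0.64 to 2.54) and S100a13 in 4 of 4 (by 0.25 to 0.91), and S100a10 was lower in 4 of 4 (by -2.75 to -1.39). From 12 h to 24 h S100a10 was lower in 4 of 4 runs (by -3.40 to -1.29) and S100a13 higher in 4 of 4 (by 0.079 to 0.24), while S100b was higher in 3 of 4. At 12 h S100a6 was higher in 4 of 5 runs, with differences from -0.46 to 2.95. With the beta-actin ratio as a covariate in the fit, no member was called: at 24 h S100a6 differed by 1.06 ± 0.80 (limma adjusted p = 0.432), S100b by 0.75 ± 0.72 (0.546) and S100a10 by -2.23 ± 0.89 (0.149). That fit called 13 genes in all at 24 h. The ratio ran from 1.63 to 2.22 in undifferentiated arrays and from 2.23 to 3.21 at 24 h, without overlap. Ratio and group therefore cannot be told apart in that comparison.

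**Figure D3:**
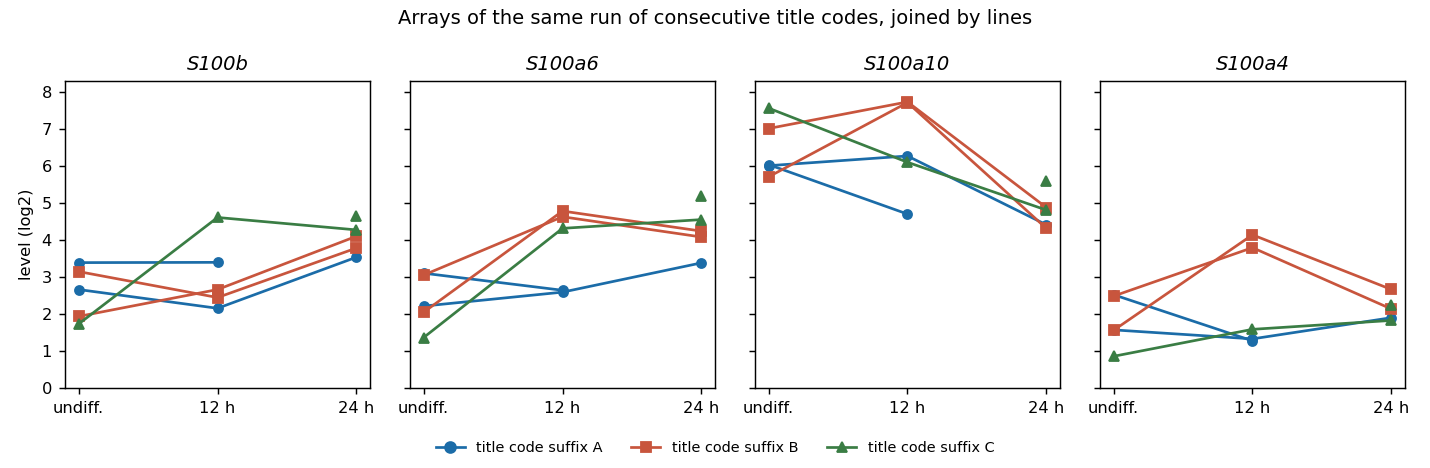
Log2 level (vertical axis) of S100b, S100a6, S100a10 and S100a4 in the 3 groups (horizontal axis), with arrays of the same run of consecutive title codes joined by lines and coloured by the code's suffix. Between undifferentiated and 24 h arrays S100b and S100a6 go up and S100a10 goes down in each of the 4 runs that hold both; at 12 h the lines of suffix B rise for S100a4, S100a6 and S100a10.

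Among 9 other S100 genes looked up, 7 had a probe set of their own and 1 passed the filter. That was S100a16, which stands with S100a1 and S100a13 in the same cluster on chromosome 3. Its arrays ran from 5.78 to 7.45 in undifferentiated cells, 6.01 to 7.20 at 12 h and 6.45 to 7.67 at 24 h, with overlap of all groups. The differences were 0.22 ± 0.33 at 12 h (limma adjusted p = 0.718) and 0.54 ± 0.33 at 24 h (limma adjusted p = 0.222). S100a3, S100a5, S100a14, S100g and the myeloid pair S100a8 and S100a9 stayed below the filter level of 0.51 on every array, the highest being S100a3 at 0.29 in 12 h replicate 4.

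The known partners of S100 proteins were taken next, 23 genes of which 21 had a probe set and 14 were tested. At 12 h 1 was higher and none lower; at 24 h 1 was higher and 2 lower, and between the times none was called. That is 1 of 14 beside 7.86% of all genes tested at 12 h, and 3 of 14 beside 32.1% at 24 h, so neither count sets the list apart. At an unadjusted p under 0.05 limma gave 2 of the 14 between the times. Their median difference was 0.095 at 12 h and -0.051 at 24 h. The gene higher at both times was Ahnak, a giant scaffold protein that binds the complex of S100a10 and annexin A2. Its log2 levels were -0.44, -0.08, 0.19, -0.34 and -0.14 in undifferentiated cells, 1.27, 1.45, 1.67, 1.63 and 1.33 at 12 h, and 1.83, 1.35, 2.17, 1.86 and 1.55 at 24 h. All undifferentiated arrays lay below the filter level and all others above it, so Ahnak passed the filter only through the groups in which it is high. In the fit without the filter, over all 12393 genes, the differences were 1.63 ± 0.16 (limma adjusted p = 5.52e-05) and 1.91 ± 0.16 (limma adjusted p = 4.15e-06). The undifferentiated level is too low for the size of these differences to be exact.

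Anxa2, which encodes the annexin that S100a10 holds, was not called. Its log2 levels were 3.03, 2.99, 3.11, 2.34 and 3.62 in undifferentiated cells, 2.26, 3.75, 6.16, 6.12 and 2.83 at 12 h, and 2.44, 2.54, 3.33, 2.66 and 2.36 at 24 h. Replicates 3 and 4 at 12 h stood far above the other 13 arrays, as they did for S100a4. The differences were 1.20 ± 0.61 at 12 h (limma adjusted p = 0.222) and -0.35 ± 0.61 at 24 h (limma adjusted p = 0.689). The Anxa2 difference at 24 h was within its spread.

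The partners lower at 24 h were Myh9, the heavy chain of non-muscle myosin that S100a4 binds, and Ppp5c, a phosphatase to which S100 proteins can bind. Myh9 ran from 5.27 to 6.26 in undifferentiated cells and from 4.58 to 5.57 at 24 h, with overlap, and differed by -0.69 ± 0.24 (limma adjusted p = 0.0400); in the fit without the filter it was not called (0.0530). Ppp5c differed by -1.15 ± 0.25 (limma adjusted p = 0.00321). Ager, the receptor for released S100b, stayed below the filter level, with a mean of 0.017 over the 15 arrays.

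**Figure D4:**
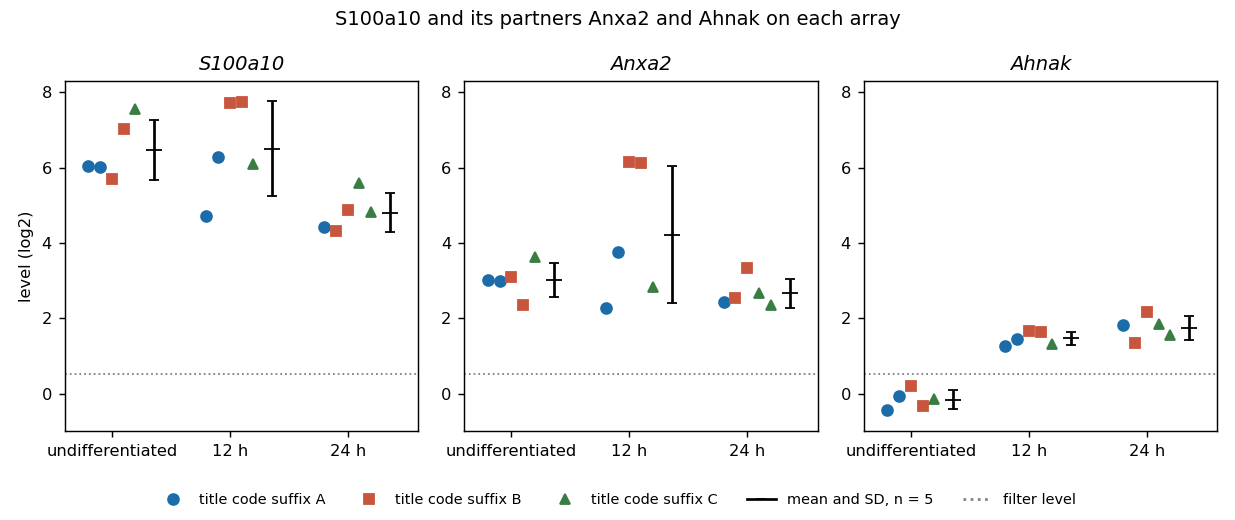
Log2 level (vertical axis) of S100a10, Anxa2 and Ahnak on every array of the 3 groups (horizontal axis), with mean and SD beside each group and the filter level dotted. S100a10 is lower at 24 h than in undifferentiated cells, Ahnak is higher at both times, and Anxa2 is near 6 only in 12 h replicates 3 and 4 (6.16 and 6.12).

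Of 22 EF-hand proteins outside the family, 18 had a probe set and 13 were tested. None was called at 12 h or between the times by limma, where 3 and 2 had an unadjusted p under 0.05, and 3 were higher and none lower at 24 h, beside 32.1% of all genes called then (12.7% higher). These were Pdcd6, a calcium sensor of membrane repair and trafficking (0.45 ± 0.14, limma adjusted p = 0.0222), Capns1, the small subunit of calpain (0.58 ± 0.22, limma adjusted p = 0.0498), and Rcn3, a calcium-binding protein of the secretory pathway (0.48 ± 0.15, limma adjusted p = 0.0208). Rcn3 lay below the filter level in undifferentiated cells and passed through the later groups; without the filter its adjusted p was 0.0240 by limma, and Capns1 was not called (0.0659). The median difference of the 13 tested was 0.25 at 24 h.

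Markers of cell types were summarised beside these results. Of all genes tested, 7.86% were called at 12 h (3.3% higher) and 32.1% at 24 h (12.7% higher, 19.4% lower). Of 12 astrocyte markers, 4 were higher at 12 h, and 6 were higher and 1 lower at 24 h. The lower one was Slc1a2, which lay below the filter level at 24 h and passed only through the other groups. In the fit without the filter it was not called (limma adjusted p = 0.0564), and 5 of the 12 were higher at 24 h. The summed linear level of the 12 ran from 902 to 1593 in undifferentiated arrays and from 1926 to 4383 at 24 h. Of 11 tested oligodendrocyte lineage markers, none was called at 12 h by limma (2 at an unadjusted p under 0.05) and 8 were higher at 24 h. Among those 8, Mal passed the filter only through the later groups. The summed level of all 12 with a probe set, the untested Mog included, was 978 to 1565 in undifferentiated arrays and 1365 to 3987 at 24 h. Such sums add levels of different probe sets and weigh the highest most. Here that was Olig1, with a mean log2 level of 9.71 in undifferentiated cells, which was not called. Gfap, the astrocyte filament, differed by 3.35 ± 0.67 at 24 h (limma adjusted p = 0.00196), and Sox10, the oligodendrocyte lineage factor, by 2.66 ± 0.57 (limma adjusted p = 0.00283). At 24 h 5 astrocyte and 3 oligodendrocyte lineage markers did not pass, among them Slc1a3 (-0.025), Slc4a4 (-0.0075), Olig2 (0.063) and Cspg4 (-0.30). Some markers of each list thus rose with S100b, and the part of either cell type in its result was not tested.

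Of the 6 stem cell markers all were tested and called at 24 h, 3 higher and 3 lower. Beside this count and the next ones, 32.1% of all genes tested were called at 24 h (12.7% higher, 19.4% lower). Nes, the filament of neural progenitors, was lower by -2.05 ± 0.37 (limma adjusted p = 0.000975) and Sox2 was higher by 1.03 ± 0.24 (limma adjusted p = 0.00466). Of 4 tested neuronal markers 2 were higher at 24 h, Dcx and Tubb3. Of 6 ependymal markers looked up, 3 had a probe set of their own and 2 were tested. Both of these were higher at 24 h, Foxj1 by 1.51 ± 0.25 (limma adjusted p = 0.000649) and Rsph1 by 0.34 ± 0.09 (limma adjusted p = 0.00786). Rsph1 lay below the filter level in undifferentiated cells and at 12 h and was tested only through the 24 h group; without the filter its limma adjusted p was 0.00592.

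Cells that carry high S100a4, S100a6 or S100a10 elsewhere were looked for in the same way. All 8 microglial and all 8 endothelial markers lay below the filter level, with summed linear levels of 6.43 to 6.94 and 6.13 to 6.77 over all arrays. Of 10 pericyte and fibroblast markers, 8 lay below it, among them Col1a1, Col1a2, Col3a1, Dcn and Lum; Fbln1 was lower at 24 h (-1.36 ± 0.30, limma adjusted p = 0.00345). Pdgfrb, below the filter level in undifferentiated cells and at 12 h, passed only through the 24 h group, where it was higher; in the fit without the filter it differed by 1.97 ± 0.23 (limma adjusted p = 8.77e-05). In summed level these 10 markers ran from 11.3 to 17.7 in undifferentiated arrays, 10.2 to 15.3 at 12 h and 10.03 to 13.7 at 24 h.

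The genes whose levels followed each member most closely were taken as the 3 with the highest Pearson r over the 15 arrays among 7783 tested genes; these are descriptions, the arrays share their groups and suffixes, and r after removal of the group means is given in parentheses. For S100b they were Col9a1 at 0.949 (0.904), Sirt2 at 0.944 (0.917) and Gal3st1 at 0.944 (0.894). Sirt2 encodes a deacetylase abundant in oligodendrocytes, and Gal3st1 the enzyme that makes sulfatide for myelin. Among single markers, S100b followed Cnp with an r of 0.932 (0.876) and Sox10 with 0.920 (0.850), and Gfap with 0.842 (0.748). Mbp was less close at 0.667 (0.381), and Olig2 ran the other way at -0.146 (-0.313). S100b had a positive r with 10 of the 11 oligodendrocyte lineage markers and 11 of the 12 astrocyte markers. Its r had a median of 0.758 (0.535) over the 11 oligodendrocyte lineage markers and 0.665 (0.625) over the 12 astrocyte markers.

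For S100a6 the closest genes were Prkar1b, a regulatory subunit of protein kinase A, at 0.910 (0.861), Cldn11, a claudin of the myelin sheath, at 0.876 (0.813), and Cask, a membrane scaffold, at 0.876 (0.798). For S100a10 they were Fcgbp at 0.946 (0.914), Cgref1 at 0.927 (0.896) and Creld2, a protein of the endoplasmic reticulum, at 0.926 (0.916). S100a10 also followed Myh9 with an r of 0.919 (0.919) and Anxa2 with 0.725 (0.767). With Ahnak its r was -0.344 (0.321). Over the 14 tested partners the r of S100a10 had a median of 0.294 (0.320), and was positive for 8 (9). The r of S100a10 had a median of -0.507 over the 11 oligodendrocyte lineage markers, and of -0.076 after removal of the group means, with 5 of 11 then positive. Over the 12 astrocyte markers the median was -0.515, and -0.454 after that removal, with 0 of 12 then positive. For S100a4 the closest were Bmerb1 at 0.848 (0.837), Efhd2, an EF-hand protein that binds actin, at 0.846 (0.876), and Bace2 at 0.845 (0.839). Efhd2, like S100a4 and Anxa2, was highest in 12 h replicates 3 and 4 (4.05 and 3.99, against 0.86 to 2.55 elsewhere).

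S100a13 lay closest to Selenow, a small selenoprotein, at 0.949 (0.952), Brk1 at 0.944 (0.923) and Ndufa3, a subunit of respiratory complex I, at 0.928 (0.900). S100a1 lay closest to Ywhae at 0.869 (0.861), Fgf12 at 0.861 (0.861) and Phpt1 at 0.853 (0.872). Among the S100 genes themselves the highest r over arrays was that of S100a6 with S100a16, 0.815 (0.877), followed by S100a13 with S100b, 0.795 (0.704). S100a4 and S100a6, which have S100a5 between them, reached 0.663 (0.768) and the neighbours S100a1 and S100a13 0.693 (0.693). S100a10 ran against S100b with -0.675, or -0.433 after removal of the group means.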

How the data were processed

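Biotin-labelled total RNA of each of 15 samples was hybridised to its own Affymetrix mouse array with 22690 probe sets, per the labels' protocols. The deposited table holds log10 values. The submitters' processing notes name MAS5; its scaling is not given in the sources used here. A scale of log10 was read from the 4 hybridisation spike-ins: their slope was 0.988 ± 0.0500 (SD over the 15 arrays) per log10 unit of concentration. Array medians ran from 0.287 to 0.453 on that scale, so the arrays had not been centred. The number of arrays limits the precision.

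Multiplication by 3.32 gave log2 values, to which no pseudocount or further normalisation was applied. Names came from the platform annotation, and probe sets with several symbols (691) or none were left out. A gene was represented by its probe set of highest mean, and was tested if that mean exceeded the 40th percentile of non-control probe sets (0.51). The test was limma (version 3.58.1 in R 4.3.3) on all 15 arrays in 1 fit of group means, with trended moderated variances and Benjamini-Hochberg adjustment over 7909 genes; an adjusted p under 0.05 was a call, and errors of differences are its standard errors. Array quality measures were compared with exact permutation tests (SciPy 1.17.1). The fit was also run on simulated data with independent noise and no suffixes, runs or RNA quality differences. That run cannot show how the fit behaves where arrays share such structure.

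The members and gene lists were chosen with earlier results of these data known. All members are named whatever their result. Of the lists of other S100 genes, partners and EF-hand proteins, the called genes and Anxa2, Ahnak and Ager are named, and per member the 3 genes with the highest r. The marker genes named, and S100a16 and S100a3, were picked after their values were seen. Alternatives concerned the sample labels, the pseudocount, the filter, normalisation, the choice of probe set, the variance model, the samples in the fit, batch terms and RNA quality.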

Additional observations from a re-analysis of the deposited data

Results flagged for a closer look

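In 3 of the 30 groups of 5 arrays examined over the S100 probe sets, the gap between the highest array and the next exceeded the critical share of the range (Dixon's test at the 95% level); chance alone flags about 1 group in 20. S100a13 was high in undifferentiated replicate 1, at 4.90 on the log2 scale against 3.96 to 4.18 in the other 4 arrays. S100a13 was also high in 12 h replicate 5, at 4.90 against 4.19 to 4.37. The second S100b probe set was high in the same array, 12 h replicate 5, at 4.15 against 1.49 to 2.14.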

How the results depend on the processing

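In every tested alternative that kept the title groups and used no covariate, S100a6 and S100b kept their direction and their call at 24 h. S100a10 kept both except without undifferentiated replicate 5 (above). Leaving out each array in turn gave 1.69 to 2.16 for S100a6, 1.28 to 1.70 for S100b and -1.86 to -1.39 for S100a10 at 24 h, with 174 to 1005, 2012 to 2804 and 1 to 362 genes called at 12 h, at 24 h and between the times, and 0 to 1, 2 to 4 and 0 to 1 members. Between the times the high count came without 12 h replicate 5, where S100b was called (1.40, limma adjusted p = 0.0320). In the same removals S100a1 ran from -0.16 to 0.31 at 12 h, S100a10 from -0.27 to 0.49 at 12 h and S100a4 from -0.56 to 0.16 between the times.

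With groups from the file codes, the 12 h differences were -0.12 for S100a1, -0.96 for S100a4, -0.29 for S100a6 and -0.14 for S100b. The 24 h differences were -0.61 for S100a1, -0.51 for S100a4, 0.038 for S100a6, -0.049 for S100a10, -0.0069 for S100a13 and -0.19 for S100b. Between the times they were -0.49 for S100a1, 0.45 for S100a4, -0.10 for S100a13 and -0.047 for S100b. That labelling gave 0 genes and 0 members called by limma, with the counts at an unadjusted p given above.

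Called genes at 12 h numbered 938 after quantile normalisation, 404 from the 2 groups alone, 1476 with the suffix as a block, 1169 and 1458 with the runs as a fixed and a random block, and 1920 without 12 h replicates 3 and 4. Between the times they numbered 50 after quantile normalisation, 18 with the mean of a gene's probe sets (which turned S100a1 at 12 h to -0.11), 2 from the 2 groups alone, 202 with the suffix block, 2 and 235 with the runs as fixed and random block, and 1 with 12 h replicates 3 and 4 averaged or left out. The suffix block and both run blocks called 1 member at 12 h (S100a6), and the suffix block and random run block 1 between the times (S100a10). Within single suffixes the 24 h values moved beyond the spread between replicates for S100a6 (0.72 in A, 3.51 in C), S100b (0.51 in A, 2.73 in C) and S100a10 (-2.36 in C).

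In the fit that held the actin ratio, 59, 13 and 1 genes were called and 0 members. At 24 h against undifferentiated cells that fit cannot tell the ratio from the group, as given above. S100a6, S100a10 and S100b at 24 h had 1.06, -2.23 and 0.75 with larger errors, S100a13 -0.16 at 12 h and -0.053 at 24 h, and S100a10 -0.28 at 12 h; the cause was not tested. Averaging 12 h replicates 3 and 4 turned S100a10 at 12 h to -0.27 and S100a4 between the times to 0.11. Leaving both out gave -0.40 for S100a4 and -0.77 for S100a10 at 12 h and 0.76 for S100a4 between the times. An alternative chosen after seeing the data also left out 24 h replicate 4. It gave the same -0.40 and -0.77, then -0.14 for S100a1 and 0.74 for S100a4 between the times, and 1851 genes at 12 h and 0 between the times. The labels give no replicate numbers to pair by. The runs of title codes match arrays across groups, and the fit with the runs as a fixed block is the paired analysis given above. The stricter filter, at the 60th percentile, left S100a4 out, so it has no value there.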
